A study of Mus musculus with 4 samples.

Results

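The uroplakin genes and Snx31 were read in newborn mouse ureters and in the newborn body as a whole. The 6 genes (Upk1a, Upk1b, Upk2, Upk3a, Upk3b and Snx31) were chosen by name, as the genes of the urothelial plaque. The choice was made with earlier results of these data known. All probe sets annotated to exactly 1 of these symbols were taken: 10 of the 45037 probe sets that are not controls, for 6 of 18193 genes. Ureters cut free of kidney and bladder were taken at postnatal day 1 (Theiler stage 27) from male FVB/N mice carrying an SMGA/EGFP transgene, named in the series title for the smooth muscle gamma-actin gene Actg2, and gave 3 unpooled samples on 3 arrays. The comparison sample was a pool of whole FVB/N mice of both sexes at the same age and Theiler stage, with no transgene listed, on 1 array. All 4 RNA samples went through 2 rounds of amplification, and the same Affymetrix MOE430 chip type was used for each. Tissue, transgene, sex and pooling change together between the groups and cannot be told apart, and the whole mouse contains its own ureters and bladder.

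Umbrella cells, the surface cells of the urothelium, carry rigid membrane plaques built from uroplakin proteins, which help the lining of ureter and bladder hold back urine. The tetraspanin Upk1a pairs with Upk2, and the tetraspanin Upk1b pairs with Upk3a or its relative Upk3b, before the proteins leave the endoplasmic reticulum. Snx31 is a sorting nexin that binds uroplakins and takes part in moving them from the cell surface towards degradation. Upk3b and Upk1b are known from mesothelium too, the lining of body cavities and organs.

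The deposited intensities had been scaled so that the trimmed mean of every array was 1500, and the median intensity was 154 to 259 in the ureters and 332 in the reference. The arrays were quantile normalized, and differences are log2 ureter minus reference, each with the standard error (SE) of a limma fit over 27022 probe sets. Background is the highest intensity among 27 probe sets for bacterial transcripts on the same array, 57.2 to 212 over the 4 arrays. Markers of the ureter wall were present as labelled. Tbx18, which encodes a T-box factor of the mesenchyme around the ureter, was higher than in the reference by 5.23 ± 0.27 (limma adjusted p = 0.00503). Myh11, encoding a myosin heavy chain of smooth muscle, was higher by 3.14 ± 0.28 (adjusted p = 0.00704). Des, another gene of the ureter wall, lay below the reference (-1.35 ± 0.37) and did not pass (adjusted p = 0.0900). The labels do not state whether each ureter sample is from a different animal; the p-values therefore cover the spread of these 3 arrays only, part of which could be technical. The reference has 1 array, which the fit assumes to vary like the ureters.

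Of the 6 genes, 5 were higher in the ureters than in the whole mouse, and Upk2 did not pass. Upk1b, Upk3a and Snx31 had the largest differences, Upk3b came below them, and Upk1a lower still. By probe set, 9 of 10 were higher and 0 lower (limma, adjusted p), against 2.68% of all probe sets higher and 3.49% lower. By gene, taking the brightest probe set of each, 5 of 6 were higher against 2.94% of 13721 genes. The median difference of the 6 genes was 4.54, beside 0.10 over all genes tested. In 10 of 10 probe sets all 3 ureters lay above the reference, which held for 39.1% of all probe sets. All 10 probe sets passed the filter on dim probe sets. Only that of Snx31 passed it through the ureters alone, since its reference value lay under the filter's threshold, so Snx31 could not have been tested without differing. Among the members with a reference above background, 4 of 5 genes and 8 of 9 probe sets were higher.

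**Figure D1:**
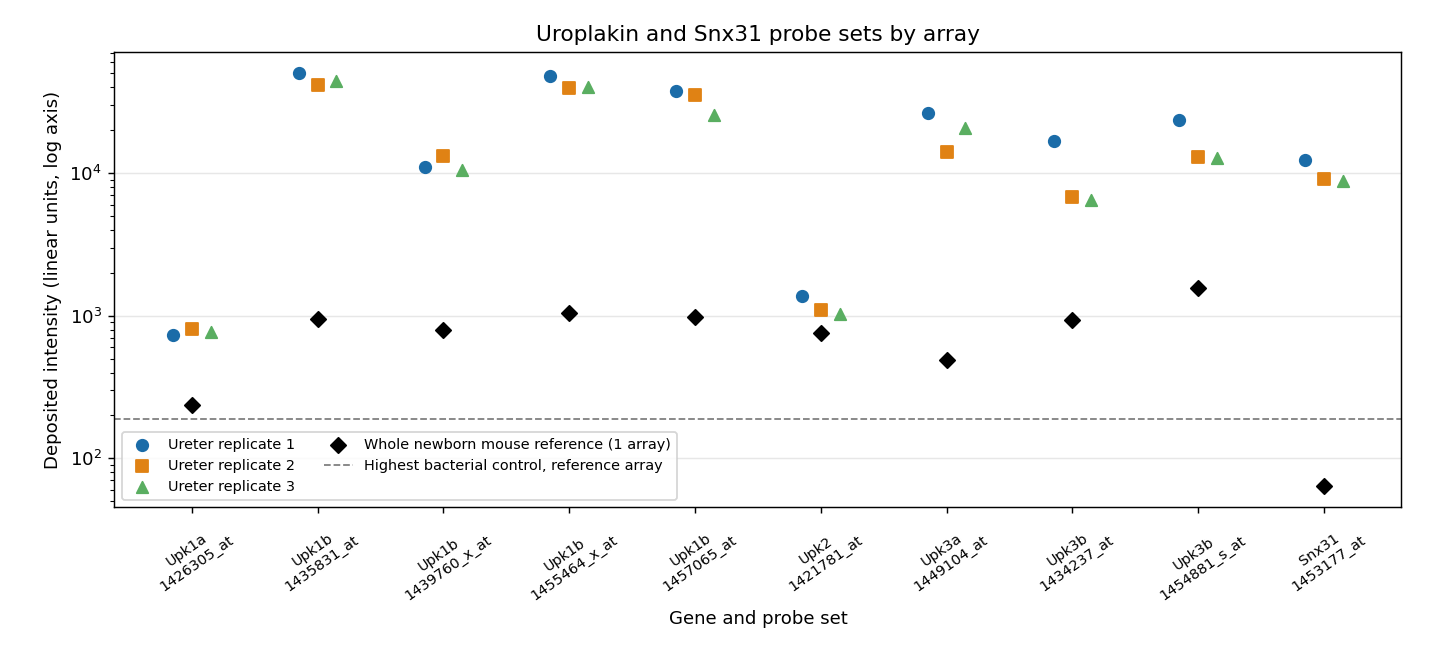
Deposited intensity (log axis) of the 10 probe sets in each ureter array (coloured symbols) and in the whole-mouse reference (black diamonds). The dashed line is the background level of the reference array, 188; only the reference value of Snx31, 63.7, lies under it, and in every probe set the ureters lie above the reference.

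Upk1b, the tetraspanin partner of the Upk3 proteins, had 4 probe sets. At 1455464_x_at, the brightest by the mean of both groups, the intensities were 48162, 39646 and 40068 in ureter replicates 1, 2 and 3 and 1038 in the reference. All 3 ureters stood far above the reference, with replicate 1 the highest. The difference was 5.65 ± 0.29 (50.1-fold, adjusted p = 0.00503). Probe set 1435831_at, designed on the same sequence record, gave 50645, 41788 and 43994 against 943, a difference of 5.90 ± 0.29 (59.8-fold). At 1457065_at the values were 37964, 35214 and 25422 against 974, a difference of 5.31 ± 0.33 (39.6-fold). The fourth, 1439760_x_at, read 11026, 13261 and 10475 against 792, a difference of 4.10 ± 0.31 (17.2-fold, adjusted p = 0.00544). The direction was thus shared by all 4 probe sets while the size of the difference spanned 17.2-fold to 59.8-fold. The letter x in a probe set name marks probes that may also bind other transcripts, so the size is less certain than the direction.

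Upk3a, the plaque protein with a long cytoplasmic tail whose loss disturbs plaque formation, read 26427, 14159 and 20691 in the ureters and 488 in the reference at its only probe set. Replicate 2 was the lowest ureter and replicate 1 the highest, and all 3 lay far above the reference. The difference from the reference was 5.75 ± 0.41 (53.9-fold, adjusted p = 0.00503).

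Upk3b, the minor relative of Upk3a in plaques, was read by a pair of probe sets from the same sequence record. At 1454881_s_at the intensities were 23747, 12913 and 12811 against 1554 in the reference, and at 1434237_at 16725, 6810 and 6449 against 930. In both, replicate 1 stood well above the other ureters, which lay close together, and no ureter overlapped the reference. The differences were 3.43 ± 0.42 (10.8-fold, adjusted p = 0.0143) and 3.49 ± 0.57 (11.2-fold, adjusted p = 0.0259). Without ureter replicate 3 these became 3.58 (adjusted p = 0.0529) and 3.70 (adjusted p = 0.0765), so that neither passed, and over the alternatives the adjusted p of the brighter one ranged from 0.00437 to 0.0529.

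Snx31, the sorting nexin that handles uroplakins, read 12288, 9171 and 8855 in the ureters and 63.7 in the reference. The reference value lay at background, so its true distance from the ureters is not measured. With the reference set at its background level, the ureters were at least 70.6-fold higher. The adjusted p of 0.00503 comes from the fit to the measured reference value and from a probe set that entered the fit through the ureters; with no filter it was 0.0129.

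Upk1a, the tetraspanin partner of Upk2, gave 732, 808 and 769 against 238. The ureters were close together (SD 37.9, n = 3) and the reference was above background. The difference was 2.25 ± 0.42 (4.75-fold, adjusted p = 0.0358). This call is the least firm of the 5: adjusted p was 0.119 with the scaling as deposited (difference 1.64), 0.0704 with no filter, 0.0644 without ureter replicate 1 and 0.161 without replicate 3, and ranged from 0.00973 to 0.161 over the 11 alternatives in which it was tested.

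Upk2, which pairs with Upk1a and whose promoter is widely used to direct transgenes to urothelium, read 1377, 1091 and 1037 against 758. All 3 ureters lay above the reference, but by less than the fit could separate: the difference was 0.95 ± 0.42 (95% interval -0.06 to 1.96, adjusted p = 0.232). The interval reaches from no difference to about the value of Upk1a, so these arrays do not show that Upk2 was equal in the groups. It did not pass under any of the 12 alternatives, where adjusted p ranged from 0.150 to 0.501.

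**Figure D2:**
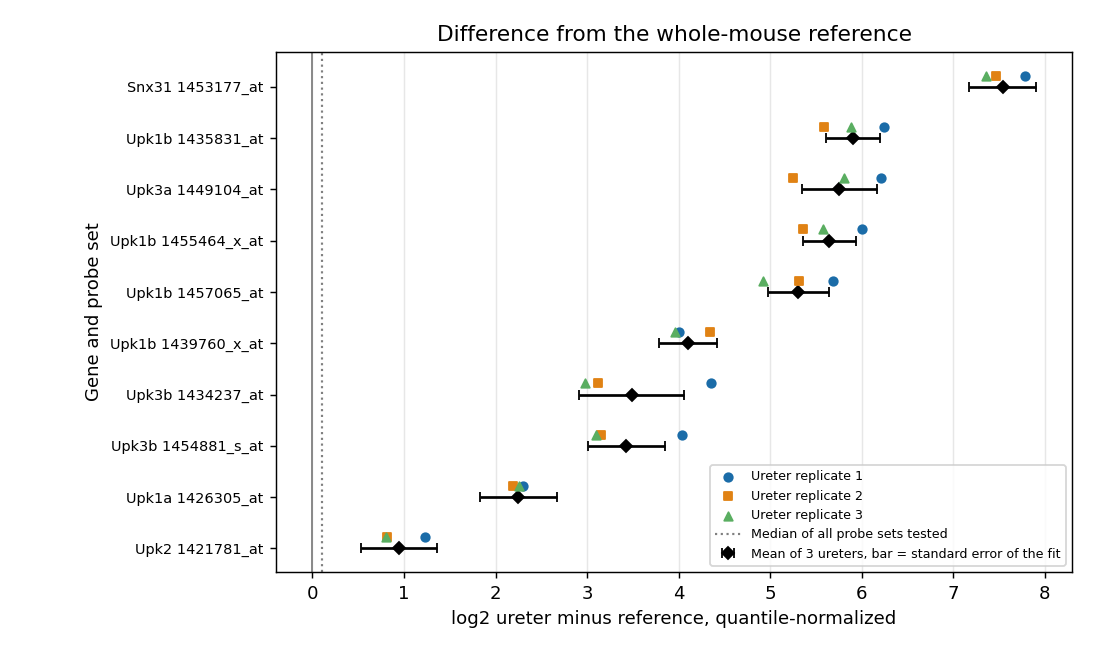
Difference from the reference on the quantile-normalized log2 scale, by probe set, as the mean of 3 ureters with the standard error of the fit (black) and for each ureter (coloured). The reference of Snx31 is at background, so its point shows no measured distance; Upk2 has the smallest difference (0.95), and the dotted line marks the median of all probe sets tested, 0.11.

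The sizes of the differences were close within a pair of proteins in one case and less so in others. Upk1b and Upk3a, which pair, differed from the reference by 5.65 (95% interval 4.93 to 6.36) and 5.75 (4.76 to 6.75), and these neighbours in the order do not differ beyond their errors. At the other Upk1b probe sets the difference was 5.90, 5.31 and 4.10 (3.34 to 4.86 for the last). How close Upk1b lay to Upk3a thus depends on the Upk1b probe set read. Upk1a and Upk2, which also pair, differed by 2.25 (1.22 to 3.27) and 0.95, and their intervals overlap too. Upk3b, the alternative partner of Upk1b, lay between them at 3.43 (2.40 to 4.46). When each gene's 4 log2 values were centred on their mean, the distance between Upk1b and Upk3a was 0.28, the smallest of the 10 pairs that leave out Snx31, whose reference at background gives no measured distance. That between Upk1a and Upk2 was 1.16, the next smallest, followed by Upk1a and Upk3b at 1.23, and Upk2 and Upk3a stood farthest apart at 4.19. These distances describe 4 arrays and carry no test, and since each gene is read by its own probes, the size of a difference depends in part on how each probe set responds.

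The ureters themselves differed in the level of these genes, with replicate 1 highest. On the normalized scale replicate 1 was the highest ureter in 9 of 10 probe sets, the exception being Upk1b at 1439760_x_at, against 36.7% of all probe sets tested; on the intensities as deposited it was highest in 8 of 10, against 28.8%. Averaged over the 6 genes, replicate 1 lay 0.33 above the mean of the ureters, replicate 2 at -0.22 and replicate 3 at -0.11. Upk3b deviated most in replicate 1 (0.61) and Upk1a least (0.05). The median SD of the 10 probe sets was 0.33, from 0.05 for Upk1a to 0.75 for Upk3b at 1434237_at, beside a median of 0.36 over all probe sets tested and 0.23 in the 5405 brightest of them. Without replicate 1 the median SD of the members was 0.13.

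Genes of other cell types moved between the ureters as well. A list of 15 measured genes of epithelia in general, such as Epcam and Cdh1, deviated by 0.36, -0.22 and -0.14 in replicates 1, 2 and 3, a pattern close to that of the plaque genes. Averaged over genes, markers of kidney epithelium went the other way, at -1.43, 0.91 and 0.51. Their summed normalized intensity over 11 measured genes was 2292, 22732 and 14631 in the ureters and 10252 in the reference, with 8, 9, 11 and 9 of the 11 above background. Calb1, which read 267, 10981 and 8584 as deposited, made up much of these sums in replicates 2 and 3. In deposited intensity, Umod and Slc12a1 of the loop of Henle read 32.9 and 29.4 in replicate 1, at background, but 1993 and 4114 in replicate 2 and 917 and 651 in replicate 3. Aqp2, the water channel of the collecting duct, read 138, 561 and 402 against 266 in the reference. Kap and Nphs1 were instead highest in replicate 1 on the normalized log2 scale. Kap stood there at 9.41, 9.21 and 9.24 and Nphs1 at 7.67, 6.74 and 7.20. The ureter wall list deviated by -0.21, 0.14 and 0.08. Replicate 1 was highest in the list of basal urothelium genes (0.47, -0.31 and -0.16) and in that of mesothelial genes (0.64, 0.07 and -0.71) too. The part these other cells play in the spread of the plaque genes was not tested, and in whole tissue fewer cells of a type and less RNA per cell cannot be told apart. Without replicate 1, the array poor in kidney genes, the differences from the reference were 5.46 for Upk1b, 5.39 for Upk3a, 3.08 for Upk3b, 2.13 for Upk1a and 0.76 for Upk2.

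**Figure D3:**
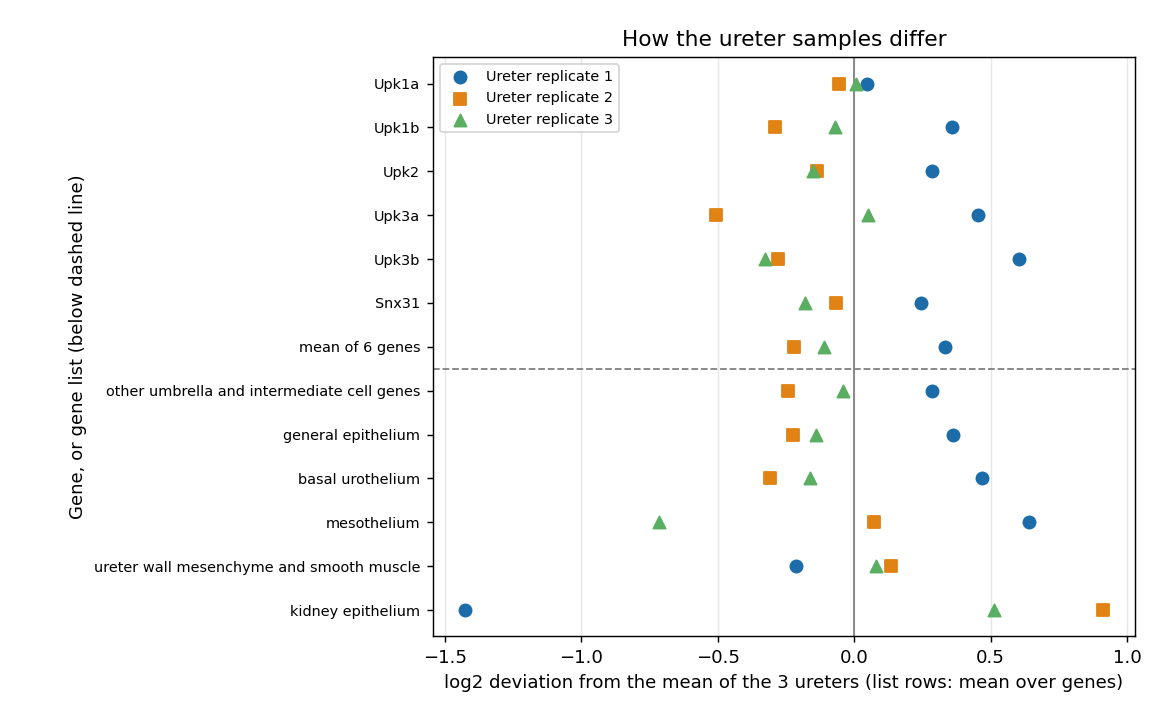
Deviation of each ureter from the mean of the 3 ureters (log2, normalized), for the 6 genes and their mean, and below the dashed line the mean over the genes of 6 lists. Replicate 1 lies to the right for each of the 6 genes and for the epithelial lists, and at -1.43 for kidney epithelium.

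Because Upk3b and Upk1b are also expressed by mesothelium, markers of that lining were read beside them. Of 7 mesothelial genes tested, 1 was higher and 0 lower, against 2.94% and 4.77% of all genes. The median of the 7 was 0.49 (-0.05 with the scaling as deposited). The gene that was higher was Wt1, a transcription factor of mesothelium and podocytes, by 2.71 ± 0.43 (adjusted p = 0.0241). Its adjusted p was 0.0538 with the scaling as deposited and 0.115 without ureter replicate 3. The mesothelial surface gene Msln read 2433, 1647 and 641 against 509 in the reference, a difference of 1.87 ± 0.71 (adjusted p = 0.179), and Lrrn4 2525, 3885 and 735 against 233, a difference of 3.55 ± 0.87 (adjusted p = 0.0707). Muc16 (0.46) and Bnc1 (-0.06) had the smallest differences. The summed normalized intensity of 8 measured markers was 21698, 15024 and 5617 in the ureters and 19181 in the reference, with 7 or 8 of 8 above background on each array. Gpm6a made up much of this sum, at 11022, 6032 and 1247 against 15988, while Wt1 read 1110, 1710 and 1647 against 317. The markers thus did not share an order over the ureters. The part of mesothelium in the values of Upk3b and Upk1b was not tested. Upk3bl, the neighbouring relative of Upk3b, is 1 of these 7 genes. It read 124, 248 and 148 in the ureters and 205 in the reference. Its difference of 0.49 ± 0.59 (adjusted p = 0.672) is also the median of the list.

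Other genes of umbrella and intermediate cells, chosen like all the lists with earlier results of these data known, were mostly higher too. Of 15 tested, 11 were higher, 1 was lower and 3 did not pass, with a median of 2.31, against 2.94% of genes higher and 4.77% lower overall. Sptssb, a subunit of the enzyme that begins sphingolipid synthesis, read 34957, 19804 and 21757 against 461 and was higher by 6.19 ± 0.43 (adjusted p = 0.00503), and the tight junction gene Cldn8 was higher by 5.54 ± 0.54 (adjusted p = 0.00845). The dehydrogenase gene Adh1 was higher by 0.96 ± 0.14, the smallest difference that passed, though in 4 of 12 alternatives it did not (adjusted p up to 0.198). Krt20, the keratin of mature umbrella cells, read 6141, 2130 and 3056 against 698, a difference of 2.57 ± 0.59 that did not pass (adjusted p = 0.0604). Krt13, a keratin of intermediate cells and of other stratified epithelia, was at background in all 3 ureters and at least 38.8-fold lower (adjusted p = 0.0170). Its other probe set, 1441863_x_at, also lay below the reference but did not pass (adjusted p = 0.116). Plaur (0.68) did not pass. Cldn3 lay below the reference, at 227, 370 and 133 against 1202, and did not pass (-1.95 ± 0.57, adjusted p = 0.106). Its other probe sets gave -2.37 and -2.63 and did not pass either. The number higher fell to 8 with the scaling as deposited, to 6 without ureter replicate 3 and to 5 with no intensity trend in the fit.

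Genes that carry uroplakin vesicles to the surface or sort them gave 1 of 17 higher, against 2.94% of all genes. The other 16 did not pass, and the median of the 17 was 0.73. The gene that was higher was Mal, a raft protein that helps vesicles join the apical membrane of umbrella cells. It read 36555, 28716 and 23614 in the ureters against 3029, a difference of 3.26 ± 0.34 (adjusted p = 0.00970). Rab27b, a small GTPase of uroplakin vesicles, did not pass at its brightest probe set (2.17 ± 0.59, adjusted p = 0.0889), whereas 1439610_at (2.76, adjusted p = 0.0196) and 1417215_at (3.38, adjusted p = 0.0371) passed. Rab11fip5 also did not pass at its brightest probe set (0.91 ± 0.24, adjusted p = 0.0850) but passed at 1427405_s_at (1.93, adjusted p = 0.0426). Vps33a, needed for lysosomal delivery of uroplakins, differed by 0.08 and the motor gene Myo5b by 0.07. Without ureter replicate 2, 5 of the 17 were higher.

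Transcription factors and signals known to act in urothelium gave 4 higher and 0 lower of 15, against 2.94% and 4.77% of all genes. The median of the 15 was 0.71. Foxa1, a forkhead factor of urothelial differentiation, was higher by 3.57 ± 0.40 (adjusted p = 0.0122), the ETS factor gene Ehf by 3.02 ± 0.35 (adjusted p = 0.0130) and Gata3 by 2.01 ± 0.30 (adjusted p = 0.0210). The fourth was Shh, at 1.69. Grhl3, needed for umbrella cell maturation, read 3637, 1314 and 1549 against 586, a difference of 2.07 ± 0.62 that did not pass (adjusted p = 0.111). Tfap2a had the largest difference below 0, at -1.96 ± 0.43, and did not pass (adjusted p = 0.0527), though it was lower with an offset of 50 (adjusted p = 0.0459) and with the lowest 60% left out (adjusted p = 0.0351). Over all 12 alternatives its adjusted p ranged from 0.0351 to 0.294. Klf5 (0.56), Pparg (0.68), Elf3 (-0.09) and Rarg (-0.07) did not pass either. Without ureter replicate 3 none of the 15 passed, with adjusted p of 0.0581 for Foxa1, 0.0549 for Ehf, 0.0889 for Gata3 and 0.132 for Shh. With no intensity trend 2 of the 15 passed.

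Among basal cell genes the calls were all lower in the ureters. Of 10 tested, 0 were higher and 3 lower, against 2.94% and 4.77% of all genes, with a median of -1.26. Krt17 was at background in all 3 ureters and at least 17.2-fold lower (adjusted p = 0.0251), Krt15 was lower by -5.07 ± 0.97 (adjusted p = 0.0385) and Krt14 by -3.68 ± 0.78 (adjusted p = 0.0494). Krt5 (-1.74 ± 0.41, adjusted p = 0.0635), the basal regulator Trp63 (0.71) and Itga6 (0.56) did not pass. The laminin gene Lamb3 (1.69, adjusted p = 0.142) and the integrin gene Itgb4 (0.91) did not pass either, so 4 of the 10 had a difference above 0. These keratins are also made by skin, and 8 epidermal genes summed to 159170 in the reference against 5661 to 7614 in the ureters, with 8 of 8 above background in the reference and 3 or 4 in each ureter. Flg was at least 105.7-fold lower, Dsg1a at least 22.95-fold lower and Lor was lower by -8.01 ± 0.59. Of the 7 epidermal genes tested, 5 were lower and 0 higher, while Ivl (0.75) and Casp14 (-0.81) did not pass. At another probe set, 1422222_at, Ivl was higher (adjusted p = 0.0479). There the reference was at background, so that probe set entered the fit through the ureters. With averaged probe sets 1 epidermal gene was higher and 6 were lower. The part of skin in the reference values of the basal keratins was not tested. Krt14 did not pass in 6 of 12 alternatives (adjusted p up to 0.137), and the number of basal genes lower was 1 with no filter, with no intensity trend and without replicate 3, and 4 and 5 without replicates 1 and 2.

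Other members of the plaque genes' families were read next, at the brightest probe set of each gene. For all the counts that follow, the shares over all genes are 2.94% higher and 4.77% lower. Of 24 other tetraspanins tested, 2 were higher and 2 lower, with a median of 0.28, which became 0.85 with median-centred arrays, where the median of all genes moved to 0.68. Tspan8 was higher by 1.72 ± 0.28 (adjusted p = 0.0257) and Tspan9 by 1.37 ± 0.29 (adjusted p = 0.0476). Tspan1 was at background in all 3 ureters and at least 16.5-fold lower (adjusted p = 0.0146), and Tspan33 was lower by -2.14 ± 0.42 (adjusted p = 0.0398). Tspan5 (-0.08) and Tspan11 (0.12) had the smallest differences. Without ureter replicate 3 none of these 4 passed (adjusted p of 0.106, 0.149, 0.0521 and 0.143), and Tspan9 and Tspan33 did not pass in 8 and 7 of 12 alternatives. Tspan2 did not pass at its brightest probe set (1.45 ± 0.32, adjusted p = 0.0540), but passed at 1424568_at (2.02, adjusted p = 0.0268) and at 1424567_at, where the reference was at background and the ureters at least 14.8-fold higher (adjusted p = 0.0142). Tspan8 was also higher at 1420018_s_at, by 3.34 ± 0.61 (adjusted p = 0.0341). It did not pass at 1420017_at (2.27, adjusted p = 0.107), at 1420019_at (1.71, adjusted p = 0.123) or at 1455709_at (-1.21, adjusted p = 0.618). Some probe sets of other tetraspanins thus had differences as large as those of Upk1a or Upk3b, and the difference between families was not tested. Of 27 other sorting nexins 0 were higher or lower, which in a list of this length lies near the shares over all genes. Their differences ran from -1.41 to 1.10, with a median of 0.07 that was -0.00104 with the scaling as deposited and 0.73 with median-centred arrays. Snx17, the closest well-known relative of Snx31 in domain structure, read 37349, 43005 and 37472 against 39663, a difference of 0.16 ± 0.15 (adjusted p = 0.582), and Snx27 differed by 0.09 ± 0.43. Snx9 (-0.01) and Snx7 (0.02) had the smallest differences. In general epithelium 1 of 15 genes was higher, the protease gene Tmprss2 by 1.97 ± 0.24 (adjusted p = 0.0141; 0.0616 with no intensity trend and 0.0842 without replicate 3), and the median was 0.55. Of the others, Epcam differed by -0.28 ± 0.26 (adjusted p = 0.576), Cdh1 by 1.00 ± 0.39 (adjusted p = 0.192), Grhl2 by -0.03 and Ocln by 0.01. Of 9 kidney genes tested 0 were higher or lower, with a median of -0.55. Without replicate 1 the median was 0.49 and Calb1 was higher (2.01, adjusted p = 0.0278). The smallest differences were those of Kap (-0.09) and Slc12a3 (0.46). In the ureter wall list 7 of 9 were higher and 0 lower, Myocd by 4.14 ± 0.83 and Cnn1 by 3.70 ± 0.39 among them. The number higher was 3 without replicate 3 and 4 with no intensity trend. The differences smallest in size were those of Actg2 (1.26 ± 0.21, adjusted p = 0.0254) and Acta2 (0.82 ± 0.12, adjusted p = 0.0209). Acta2 did not pass in 4 of 12 alternatives. Its other probe sets had a reference at background and entered the fit through the ureters, so their differences are not measured. Of these, 1444105_at was higher (adjusted p = 0.0209) and 1456658_at did not pass (adjusted p = 0.0879). Des lay below the reference, at 979, 1114 and 1014 against 2715. Its difference of -1.35 ± 0.37 did not pass (adjusted p = 0.0900).

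**Figure D4:**
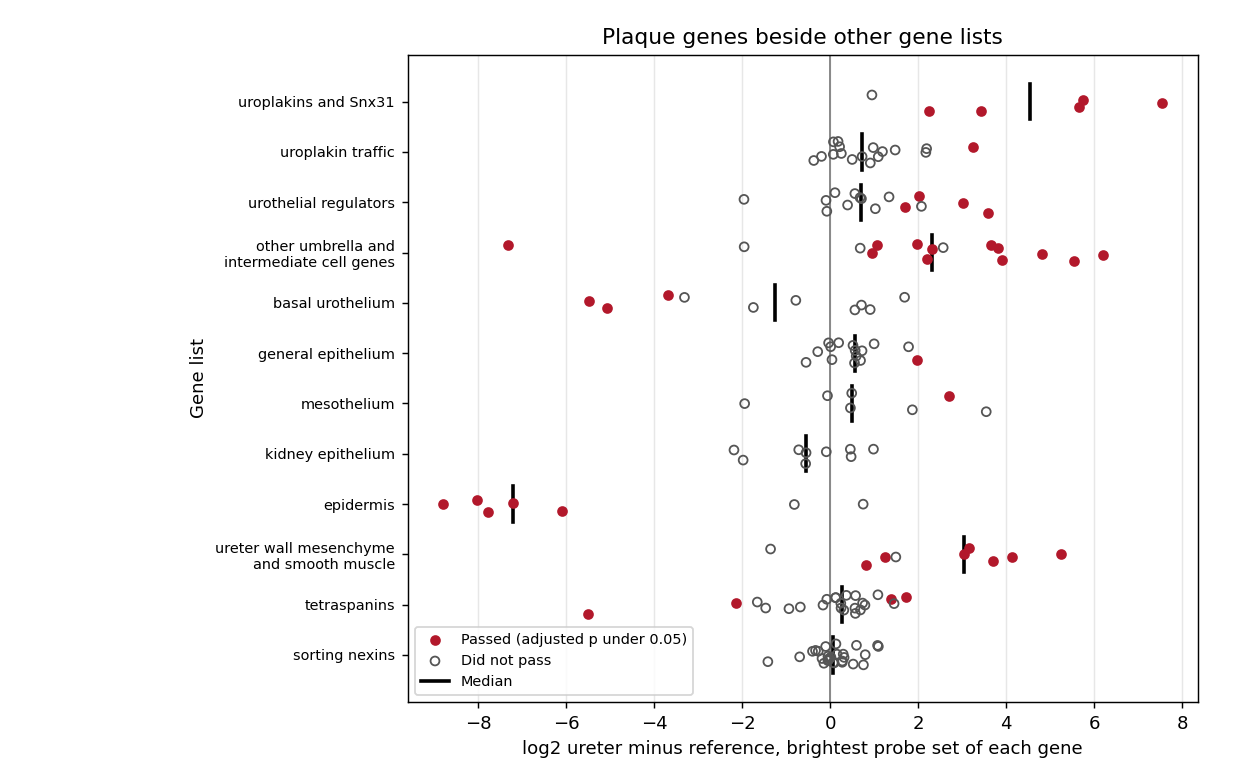
Log2 difference from the reference for the brightest probe set of each gene, by list, filled where the adjusted p of the limma fit passed, with the list median as a black bar. The plaque genes have a median of 4.54, other umbrella and intermediate cell genes 2.31 and sorting nexins 0.07; the epidermal median, drawn at -7.20, was -6.08 with genes at background in the ureters set at their bound.

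The genes whose pattern over the 4 arrays lay nearest to each plaque gene were found by the distance between centred log2 values, among genes with a tested probe set and a gene name other than a clone name. For Upk1b these were Atp10b, Tbx18 (0.42) and Lca5l, and for Upk3a Atp10b, Cldn8 (0.33) and Sptssb (0.51). For Upk3b they were Tmem81, Mal (0.26) and Wfdc15b (0.29), and for Upk1a Dnph1 (0.05), Ankrd24 (0.11) and Prag1 (0.13). For Snx31 they were Pkhd1, Sptssb and Atp10b, and for the mean of the 5 higher genes Htr4, Tbx18, Trim21, Lca5l and Acer2. The reference values of Snx31, Atp10b, Lca5l, Tmem81, Pkhd1, Htr4 and Trim21 were not above background, so distances that rest on them, and their order, are not measured and are not given. With 4 arrays, 3 of them of the same tissue, such a distance mostly reflects the size of the ureter difference. The nearest 5 changed with the processing, 0 to 5 of them being kept.

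The chromosomal neighbours of the plaque genes were read as well. With 9 of them tested, the count is too small to set against the 2.94% of all genes that were higher. Of 12 flanking protein-coding genes in the RefSeq table, 9 were tested and 1 was higher: Fam118a, beside Upk3a, by 1.81 ± 0.33 (adjusted p = 0.0326; 0.146 without ureter replicate 3 and 0.0893 with no intensity trend). B4galt4, a galactosyltransferase gene beside Upk1b, did not pass at 2.75 ± 0.63 (adjusted p = 0.0606). Ankrd46 and Pabpc1, on either side of Snx31, differed by 0.07 and 0.23. Dtx2, on the other side of Upk3b from Upk3bl, differed by 0.13.

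Of the 6 genes, 3 matched the RefSeq promoter table (GRCm38.p6): Upk1a, Upk3a and Upk3b, but not Upk1b, Upk2 or Snx31. The 250 bases before the transcription start of each are printed to show which binding motifs of urothelial factors they hold. Each is written 5′ to 3′ on the gene's own strand, with motif matches in capitals. The Upk1a window is chr7:30612735-30612984 on the minus strand, the Upk3a window chr15:85016891-85017140 on the plus strand and the Upk3b window chr5:136038246-136038495 on the plus strand.
Upk1a: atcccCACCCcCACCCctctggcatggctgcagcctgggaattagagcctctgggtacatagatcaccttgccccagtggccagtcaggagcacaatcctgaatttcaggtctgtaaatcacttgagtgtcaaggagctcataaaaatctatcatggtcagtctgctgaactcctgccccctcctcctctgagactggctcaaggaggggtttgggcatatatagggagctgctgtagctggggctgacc
Upk3a: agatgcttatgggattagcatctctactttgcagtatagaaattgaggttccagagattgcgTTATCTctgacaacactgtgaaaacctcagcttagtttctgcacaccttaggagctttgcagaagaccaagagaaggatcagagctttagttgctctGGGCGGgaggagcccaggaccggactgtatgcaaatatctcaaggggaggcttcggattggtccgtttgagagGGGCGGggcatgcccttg
Upk3b: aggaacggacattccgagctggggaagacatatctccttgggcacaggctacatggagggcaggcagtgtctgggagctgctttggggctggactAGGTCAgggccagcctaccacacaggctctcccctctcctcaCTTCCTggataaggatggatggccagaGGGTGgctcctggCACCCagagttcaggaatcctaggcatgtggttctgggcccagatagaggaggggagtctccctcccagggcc

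The motifs were searched on both strands, and the share of all 32851 windows of the same length that hold each is given. For Grainyhead factors AACCGGTT (0.116%) and AACCNGTT (1.79%), which overlap each other, were searched, for GATA factors AGATAA (9.99%) and TGATAA (7.94%), for KLF and Sp factors GGGCGG (32.7%) and CACCC (52%), and for FOXA factors TGTTTAC (3.17%) and TGTTTGC (4.3%). AGGAAG (29.5%) stood for ETS factors, TATAAA (12.4%) for the TATA box and AGGTCA (14%) for the core site of nuclear receptors, of which the PPAR-RXR direct repeat (0.0335%) holds a tandem pair. Upk3a held AGATAA on the minus strand, 188 bases before the start, and GGGCGG at 91 and 18 bases. Upk3b held AGGTCA at 155 bases, AGGAAG on the minus strand at 113 bases and CACCC at 86 (minus strand) and 73 bases. Upk1a held CACCC at 245 and 239 bases. The GATA match thus fell in the Upk3a window and the nuclear receptor and ETS matches in that of Upk3b, and no motif other than CACCC was found in more than 1 of the 3 windows. A match of this length is a description of the letters, and the absence of one from these windows says nothing about a factor's role.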

How the data were processed

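Gene expression was measured in 3 ureter samples and 1 whole-mouse pool. The deposited table holds linear intensities, with 1 value for each probe set on each array; the submitters' processing notes name GCOS without a version, and whether background was subtracted is not given in the sources used. From the values, the authors' scaling gave every array a trimmed mean of 1500 (2% cut from either tail). Median log2 intensities spanned 1.11, over the limit of 0.5, so the arrays were quantile normalized and log2 transformed after adding 12.23, their pooled 10th percentile; folds of dim probe sets are understated. Amplification in 2 rounds favours the 3′ ends of transcripts. Of 45101 probe sets, 64 were controls; of the rest, the dimmest 40% by the average of the ureter and reference means were dropped, which kept 27022.

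Ureters and reference were compared with limma 3.58.1 in R 4.3.3 (lmFit, eBayes with an intensity trend, two-sided, 2 residual degrees of freedom, Benjamini-Hochberg over all probe sets tested, threshold 0.05). The script was tested on simulated data. Where the dimmer group lay at background on every array, a fold is given as "at least", against the higher of background and the probe set's own value. Probe sets were named from platform annotation: 34945 had 1 symbol, 932 several and 9160 none. A gene is read at its brightest probe set. The 6 genes and the 11 other lists were chosen with earlier results of these data known. Named genes are the 6 members, a fixed short set of markers and the nearest by pattern. From each list, up to 3 with the largest difference past the threshold and 2 with the smallest are named. Outside this rule, chosen after their values were seen, are Shh, Tspan2, Tspan9, Tfap2a, Lamb3, Itgb4, Gpm6a, Calb1, Nphs1, Upk3bl, Des, Cldn3, Rab11fip5 and the neighbours. The 12 alternatives were other scalings, offsets, filters and priors, averaged probe sets, and leaving out each ureter. Precision is limited by the number of arrays.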

Additional observations from a re-analysis of the deposited data

How the results depend on the processing

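Under 12 alternatives no difference of the 6 genes changed direction, and the calls of Upk1b, Upk3a and Snx31 held in all of them; Upk1a was not tested with the lowest 60% left out. Upk1a lost its call on the deposited scaling (1.64) and with no filter (2.25), and leaving out a ureter gave 2.13 to 2.32 for Upk1a and 3.08 to 3.58 for Upk3b. Leaving out a ureter gave 3 to 5 of the 6 genes higher, the 3 being Upk1b, Upk3a and Snx31 without replicate 3. Probe sets higher numbered 725, but 444 with the scaling as deposited, 401 with no filter, 269 with no intensity trend and 48 to 928 with a ureter left out, 48 without replicate 3; those lower numbered 942, or 269 to 1207 with a ureter left out. Higher calls made up 43.5% of all calls, against 33.5% as deposited and 48.0% with median-centred arrays, 29.8% with no intensity trend and 15.1% without replicate 3, and the median over all genes was 0.10, -0.05 and 0.68 under the main, deposited and median-centred scalings. List genes higher numbered 27, but 13 with no intensity trend and 10 to 31 with a ureter left out; those lower numbered 11, but 7 with a filter on the mean over all arrays and 7 to 14 with a ureter left out. The median SD of the member probe sets was 0.33, or 0.24 as deposited, 0.51 with median-centred arrays and 0.13 to 0.39 with a ureter left out. Of the 5 genes nearest to the mean pattern, 3 were kept as deposited, with median-centred arrays and with either other offset, 0 with the lowest 60% left out, 1 with averaged probe sets and 2 to 4 with a ureter left out. Apart from the fewer samples or probe sets an alternative uses, the cause was not tested. No paired analysis was possible because the reference is 1 array and the replicate numbers were given in accession order.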
